A study of Rattus norvegicus with 55 samples.

Results

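The 10 genes described here make proteins of the kidney's extracellular matrix: Col4a3, Col4a5, Lamb2 and Lamc1 of the basement membrane, the adhesive glycoprotein fibronectin (Fn1), the small leucine-rich proteoglycans Dcn, Bgn, Lum and Fmod, and the matricellular protein Sparc. They are 10 of the 4736 genes named on the array, and every probe set annotated to them was taken, 23 of 8799. Of these, 21 lay above the filter on dim probe sets and entered the fit over 6555 probe sets, whereas Fn1 M28259cds_at and Fmod X82152_at did not.

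A basement membrane is a sheet of laminin and type IV collagen networks, joined by further glycoproteins, on which epithelia and endothelia sit. In the mature glomerulus it holds a collagen network of the α3, α4 and α5 chains and laminin with the β2 chain, and mutations of these chains cause glomerular disease in humans. Fibronectin forms fibrils that cells grip through integrins, the small leucine-rich proteoglycans bind collagen fibrils and growth factors, and Sparc is a secreted calcium- and collagen-binding protein made during tissue growth.

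The data were intensities of total kidney RNA from Rattus norvegicus on 55 short-oligonucleotide arrays. All sample titles read SHR kidney, SHR being the usual abbreviation of the spontaneously hypertensive rat, and all descriptions call the animals Wistar-derived. The descriptions name the kidney immature on 13 arrays, young on 14 and mature on 14, and give no stage word on another 14. Age, sex, treatment and line were not given in the sources used here, nor whether arrays came from separate animals, so p-values measure the spread between arrays, which may be technical.

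Control probe sets divided the arrays into 3 batches, which no label names. Immature kidneys had 6 arrays in batch 1 and 7 in batch 2, and young kidneys 6 in batch 2 and 8 in batch 3. Mature kidneys had 4 in batch 1 and 10 in batch 3, and those without a stage word 6 in batch 2 and 8 in batch 3. Mature replicates 1 and 9, both in batch 3, stood apart with GAPDH 3′ to 5′ ratios above 3, against at most 2.62 on the other 53 arrays. The next highest were also mature, replicate 12 at 2.62 and replicate 5 at 1.45, both in batch 1. Their β-actin 3′ to 5′ ratios were 2.82 and 2.75. All remaining arrays were at most 1.22 for GAPDH and 1.94 for β-actin. Replicates 5 and 12 stayed in the fits inside batch 1 and in those that left out replicates 1 and 9. Intensity of X56596_at, a probe set of the class II histocompatibility gene RT1-Bb, was 1412 to 2381 on 12 arrays, 3 of each stage description, and 80.1 to 263 on the other 43. The kidney markers were present: the summed intensity of 11 proximal tubule genes was 47133 to 114590 on mature arrays, 62367 to 93282 on young arrays and 48592 to 73959 on immature arrays.

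The comparison of mature with immature kidney asks which matrix genes differ between the later and the earlier stage. Probe sets called lower in mature kidney, by 1.28 to 3.19-fold, belonged to 5 genes. They were the 1 of type IV collagen α5, 3 of 4 of decorin, 3 of 4 of Sparc, 1 of 4 of fibronectin and 1 of 2 of laminin β2. The other laminin β2 probe set was called higher. Type IV collagen α3, laminin γ1, biglycan, lumican and fibromodulin did not pass the test. Of the 21 probe sets, 9 fell and 1 rose in mature kidney at an adjusted p under 0.05, against 24.4% of all probe sets called in either direction, 14.1% lower and 10.3% higher. The members' median difference was -0.36 on the log2 scale, against 0.04 over all probe sets tested. The moderated F test over the 4 descriptions called 14 of 21, against 28.5% of all probe sets. A fit with batch as a block called 10 of 21 between mature and immature kidney, all lower, against 12.6% of all probe sets. Within batch 1 alone (4 mature, 6 immature), 1 of 21 was called, lower, against 0.717% of all probe sets. All 9 lower calls over all arrays, which include these, stayed below 0 there.

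In whole-kidney RNA, fewer cells of a type and less RNA per cell cannot be told apart. Markers of fibroblasts and stroma moved in the same contrast: of 9 genes tested, 4 were lower and 1 higher in mature kidney, against 24.4% of all probe sets called. Their summed intensity was 2915 to 7271 (median 3955) on mature arrays and 7577 to 14976 (median 10065) on immature arrays, without overlap. These 9 genes include Col1a1, Col1a2 and Col3a1, collagen genes that are matrix genes themselves. The sum therefore does not separate matrix transcripts from stromal cells. Col1a1, the α1 chain of type I collagen, was at 439 to 1960.1 on mature arrays and 2773 to 5832 on immature arrays. Other cell markers moved too: 5 of 11 proximal tubule genes were higher and 1 lower, among 11 genes of the collecting duct, the loop and the distal tubule 5 fell and 2 rose, and 1 of 8 smooth muscle and mesangial genes was higher and 2 lower. Of 4 podocyte genes 1 was higher and 0 lower, and of 6 endothelial genes also 1 and 0. The podocyte sum had a median of 2032.5 on mature and 1459 on immature arrays. Among 7 immune genes 1 rose and 1 fell, and of 8 genes of other tissues 0 were called. The smooth muscle and mesangial sum was 1386 to 5308 (median 1987) on mature arrays and 2270 to 4206 (median 3006) on immature arrays. The highest mature value of this sum, and those of the fibroblast and proximal tubule sums, came from arrays with GAPDH ratios above 3. The part of these cells in the differences below was not tested.

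Col4a5 encodes the α5 chain of type IV collagen. Its probe set rc_AA891834_at read 32.9, 232 and 327 (lowest, median and highest) on mature arrays and 389, 531 and 1012 on immature arrays. Every mature array lay below every immature array, which held for 0.320% of all probe sets in that direction. The difference was -1.67 ± 0.23 (log2, SE), or 3.19-fold lower in mature kidney (adjusted p = 2.5e-07). With batch as a block it was -1.19 ± 0.23 (adjusted p = 0.00023), and inside batch 1 it was -0.88 ± 0.21 (adjusted p = 0.081). The lowest mature readings, 34.9 and 32.9, were those of the 2 arrays with high GAPDH ratios. Without them the mature arrays spanned 147 to 327, still apart from the immature ones, with a difference of -1.34 ± 0.18 (adjusted p = 1.2e-07).

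Young kidneys stood between, at 219, 416 and 641 on Col4a5. Mature kidney was lower than young by 1.01 ± 0.23 on the log2 scale (adjusted p = 0.0094), and without the high-ratio arrays by 0.68 ± 0.18 (adjusted p = 0.048). Young kidney was lower than immature by 0.66 ± 0.23 (adjusted p = 0.039), a call lost in 12 of 55 fits that left out 1 array. The young arrays split by batch without overlap, at 511 to 641 in batch 2 and 219 to 422 in batch 3. Inside batch 2 the young minus immature difference was -0.50 ± 0.13 (adjusted p = 0.0076), and inside batch 3 the mature minus young difference was -0.74 ± 0.31 (adjusted p = 0.61). Arrays without a stage word read 94.6, 246 and 405, and neither mature nor young arrays differed from them by the test.

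Col4a3, the α3 chain that assembles with α5 in the glomerulus, was not called between mature and immature kidney. Its probe set L47281_at read 124, 152 and 318 on mature arrays and 89.9, 166 and 247 on immature arrays, overlapping almost throughout. The difference was 0.08 ± 0.15 (adjusted p = 0.72), and the moderated F test over the 4 descriptions gave an adjusted p of 0.37. Col4a4 neighbours Col4a3, and Col4a6 lies close to Col4a5, in the RefSeq annotation of rat assembly GRCr8, but no probe set of Col4a1, Col4a2, Col4a4 or Col4a6 was named on the array. The high-ratio arrays, which read lowest on Col4a5, read 225 and 318 on Col4a3, the highest among mature arrays.

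Of the laminin chains, Lamb2 (β2) had a pair of probe sets that ran in opposite directions. On rc_AA900848_at mature arrays read 346, 497 and 632 and immature arrays 312, 396 and 454, with 10 of 14 mature arrays above the highest immature one. On rc_AI104225_at mature arrays read 395, 486 and 971 and immature arrays 535, 683 and 1084, with 9 of 14 mature arrays below the lowest immature one. The differences were 0.29 ± 0.09 (adjusted p = 0.013) and -0.36 ± 0.12 (adjusted p = 0.019). Blocking on batch gave a rise of 0.18 (adjusted p = 0.23) and a decrease of -0.43 (adjusted p = 0.026), so no direction can be given for the gene. Young against immature kidney showed the same opposition, 0.42 ± 0.09 (adjusted p = 0.00051) and -0.39 ± 0.12 (adjusted p = 0.014).

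Lamc1, the γ1 chain shared by most laminins, read 384, 568 and 689 on mature arrays and 464, 645 and 775 on immature arrays on X94551_at. The groups overlapped, with a difference of -0.16 ± 0.10 (adjusted p = 0.24). Young arrays reached 403, 733 and 873, and inside batch 2 they were higher than immature arrays by 0.30 ± 0.10 (adjusted p = 0.025), although over all arrays the difference was 0.13 (adjusted p = 0.36).

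**Figure D1:**
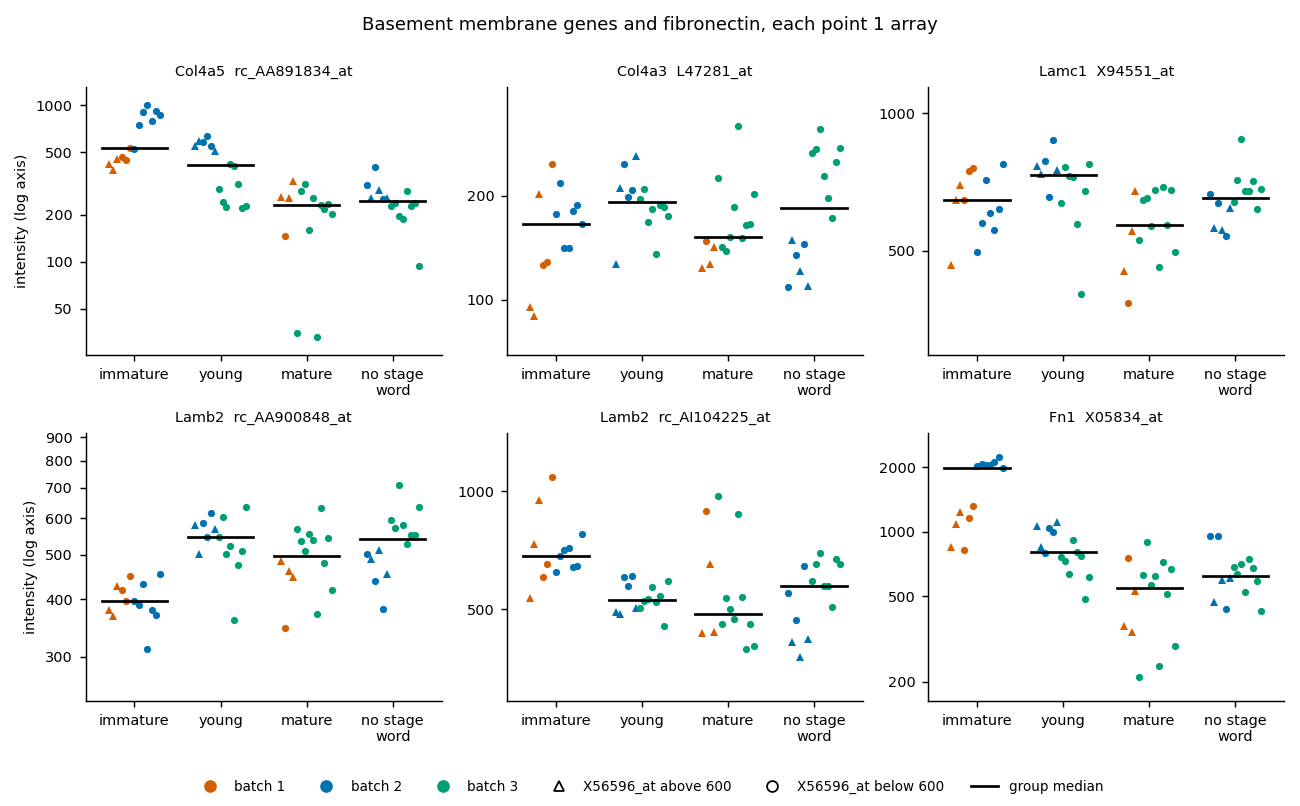
Intensity on a log axis of 6 probe sets of basement membrane genes and fibronectin, each point being 1 array, coloured by batch, with triangles for arrays above 600 on X56596_at and bars at group medians. Mature arrays of Col4a5 (highest 327) lay below all immature arrays (lowest 389), and the immature arrays of Fn1 X05834_at separated by batch.

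Fn1 had 5 probe sets, of which 4 were tested. X05834_at read 210.4, 548 and 898 on mature arrays and 820.2, 1997 and 2231 on immature arrays, with 13 of 14 mature arrays below the lowest immature one. It was 3.09-fold lower in mature kidney, by -1.63 ± 0.18 on the log2 scale (adjusted p = 4.8e-10). Blocking on batch gave -1.48 ± 0.19 (adjusted p = 2.5e-08), and inside batch 1 it was -1.14 ± 0.24 (adjusted p = 0.058). The immature arrays fell into separate ranges by batch, 820.2 to 1318 in batch 1 and 1997 to 2231 in batch 2.

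Young kidneys read 488, 803 and 1116 on X05834_at. They were lower than immature ones by 0.90 ± 0.18 on the log2 scale (adjusted p = 0.0003), and mature ones were lower than young ones by 0.72 ± 0.18 (adjusted p = 0.019). The mature minus young difference was -0.55 without the high-ratio arrays (adjusted p = 0.11) and -0.47 with batch as a block (adjusted p = 0.14). The descending order of medians was immature, young, no stage word (620) and mature, and of neighbouring groups only the immature and young ones passed the test.

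The other fibronectin probe sets were not called between mature and immature kidney. U82612cds_at read 49.2, 141 and 203 on mature arrays and 43.1, 140.1 and 192 on immature arrays, a difference of -0.07 ± 0.15 (adjusted p = 0.77). U82612cds_g_at differed by 0.10 ± 0.20 between mature and immature kidney (adjusted p = 0.73), but young kidneys were higher than immature ones on it, 138 to 366 (median 256) against 47.4 to 203 (median 178), by 0.74 ± 0.20 (adjusted p = 0.0075). X05831cds_at, at 8.1 to 79.3 on mature arrays and 16.3 to 116 on immature arrays, differed by -0.49 ± 0.20 (adjusted p = 0.062), and by -0.74 ± 0.23 with batch as a block (adjusted p = 0.022). Between young and immature kidney the 2 calls on Fn1 probe sets thus ran in opposite directions, and which transcript each reads was not given in the sources used here. M28259cds_at, under the filter, read 8.8 to 34.1 on mature arrays and 11 to 28.2 on immature arrays.

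Among the small leucine-rich proteoglycans, Dcn (decorin), which binds collagen fibrils and restrains transforming growth factor β, had 4 probe sets with mature minus immature differences below 0, of which 3 passed the test. X59859_i_at read 446, 944 and 3080 on mature arrays and 1278, 2600.2 and 3764 on immature arrays, with 10 of 14 mature arrays below the lowest immature one. The difference was -1.11 ± 0.24 (adjusted p = 0.00037), 2.16-fold lower, and -0.93 ± 0.27 with batch as a block (adjusted p = 0.017). Inside batch 1 it was -1.31 ± 0.37 (adjusted p = 0.14). Young kidneys, at 396, 978 and 1637, were also lower than immature ones, by 1.36 ± 0.24 on the log2 scale (adjusted p = 3.6e-05), and inside batch 2 by 1.02 ± 0.31 (adjusted p = 0.019).

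Z12298cds_s_at of Dcn read 68.7, 658 and 1075 on mature arrays and 499, 1127 and 1814 on immature arrays. Its difference of -0.99 ± 0.25 (adjusted p = 0.0022) stood at -0.98 with batch as a block (adjusted p = 0.011) and at -0.63 ± 0.19 without the high-ratio arrays (adjusted p = 0.009), which read 68.7 and 153. X59859_r_at differed by -0.58 ± 0.25 (adjusted p = 0.082). The weakest of the 3 calls was rc_AI639233_s_at, at 61.2, 222 and 884 on mature arrays and 131, 378 and 667 on immature arrays. Its difference of -0.81 ± 0.31 (adjusted p = 0.049) lost the call in 35 of 55 fits that left out 1 array, and was -0.25 with batch as a block (adjusted p = 0.68).

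Bgn (biglycan), the closest relative of decorin, was not called between mature and immature kidney. U17834_at read 1729, 2029.8 and 2547 on mature arrays and 1944, 2294 and 3052 on immature arrays, a difference of -0.14 ± 0.09 (adjusted p = 0.23). Under a batch block it was -0.32 ± 0.09 (adjusted p = 0.0092). The second probe set, rc_AA859830_s_at, read 202, 627 and 786 on mature arrays and 244, 483 and 699 on immature arrays, and differed by 0.21 ± 0.17 (adjusted p = 0.4).

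Lum (lumican), whose gene neighbours Dcn on chromosome 7, read 27.8, 52.4 and 72.2 on mature arrays and 34.6, 63.4 and 101 on immature arrays on X84039_at. The groups overlapped, with a difference of -0.22 ± 0.14 (adjusted p = 0.27). Fmod (fibromodulin) read 98.8, 147 and 304 on mature arrays and 64.1, 126 and 168 on immature arrays on rc_AI111481_s_at, a difference of 0.30 ± 0.13 (adjusted p = 0.084). Its highest reading was on a high-ratio array. Fmod X82152_at, under the filter, read 18.1 to 126 on mature arrays and 10.2 to 79.8 on immature arrays.

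**Figure D2:**
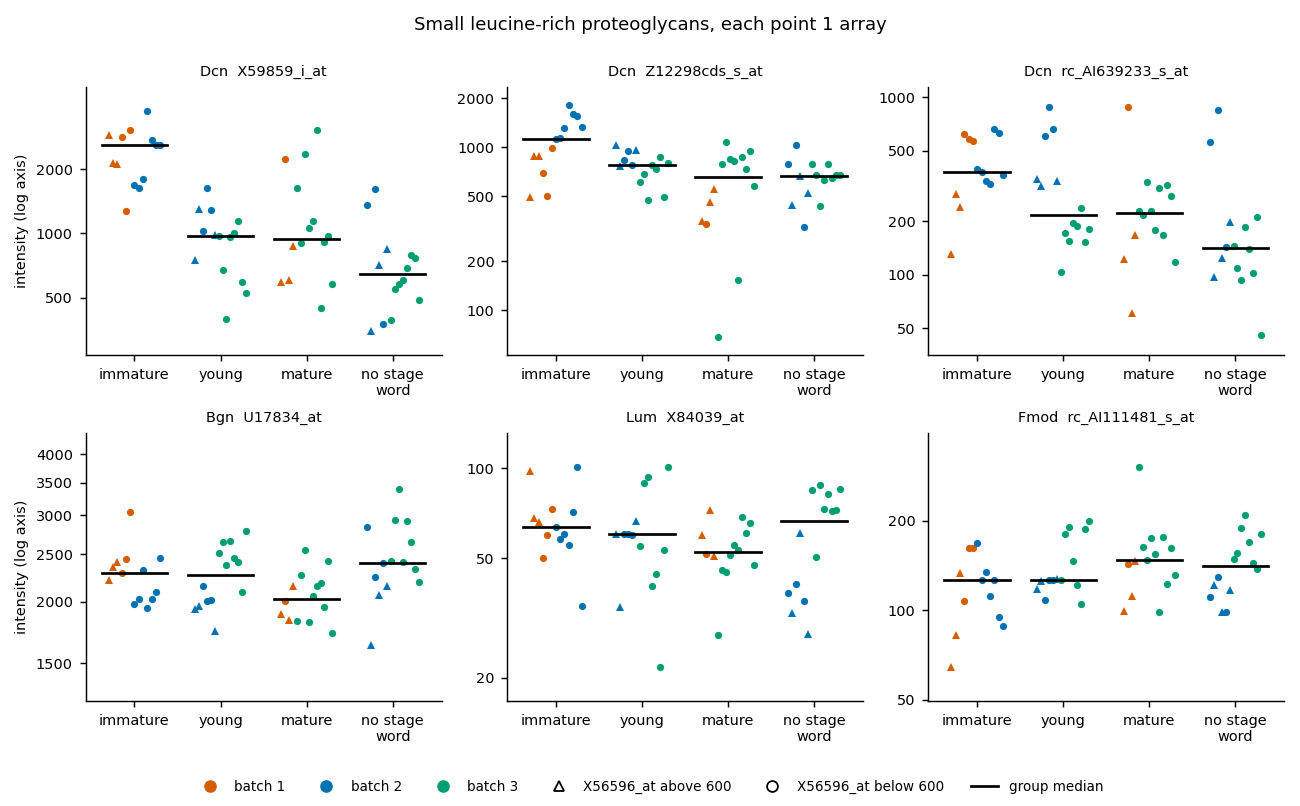
Intensity on a log axis of 6 probe sets of Dcn, Bgn, Lum and Fmod, each point being 1 array, coloured by batch, with triangles for arrays above 600 on X56596_at and bars at group medians. Dcn X59859_i_at had a median of 2600.2 in immature kidney, 978 in young, 944 in mature and 648 without a stage word, and the groups overlapped in part on all 6 probe sets.

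Sparc had 4 probe sets, and 3 of them were lower in mature than in immature kidney. Y13714_at read 1048, 1438 and 1872 on mature arrays and 1629.9, 1901 and 6140 on immature arrays, with 10 of 14 mature arrays below the lowest immature one. rc_AA891204_s_at read 72.4, 401 and 628 on mature arrays and 360.4, 648 and 1492 on immature arrays. rc_AA946313_s_at read 298, 1169 and 1703 on mature arrays and 859, 1705 and 2262 on immature arrays. Their groups overlapped in part, and the differences were -0.67 ± 0.16, -1.04 ± 0.24 and -0.84 ± 0.22 (adjusted p = 0.0016, 0.00095 and 0.0045).

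Sparc gave larger differences once batch was taken into account. Under a batch block they were -1.09 ± 0.13 on Y13714_at, -1.54 ± 0.25 on rc_AA891204_s_at and -1.57 ± 0.15 on rc_AA946313_s_at (adjusted p = 7.3e-09, 9.6e-06 and 3.3e-12). Inside batch 1 rc_AA946313_s_at, at 298 to 734 on mature and 859 to 1473 on immature arrays, was the probe set that passed the test there, at -1.55 ± 0.25 (adjusted p = 0.017). Young kidneys were not called against immature ones on these 3 probe sets over all arrays, but rc_AA946313_s_at was lower in young kidney under a batch block (-0.88 ± 0.15, adjusted p = 2.1e-05) and inside batch 2 (-0.91 ± 0.13, adjusted p = 4.4e-05). Mature kidney was lower than young on rc_AA891204_s_at, by 1.19 ± 0.24 on the log2 scale (adjusted p = 0.0015, and 0.01 without the high-ratio arrays), and on Y13714_at, by 0.56 ± 0.16 (adjusted p = 0.047). The Y13714_at call was lost in 27 of 55 fits that left out 1 array and without the high-ratio arrays (-0.54, adjusted p = 0.13), but inside batch 3 the difference was -0.69 ± 0.12 (adjusted p = 0.0028).

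The fourth Sparc probe set, rc_AA892248_at, was not called between mature and immature kidney. Its mean log2 value over all arrays was 13.1, against 9.0 to 10.8 on the other Sparc probe sets. Without the high-ratio arrays it varied opposite to them, as described at the end. Whether it reads the same transcript as they do was not tested. It read 1538, 11050.3 and 20340.4 on mature arrays and 4282, 7406 and 10814 on immature arrays, a difference of 0.18 ± 0.27 (adjusted p = 0.65). The 2 high-ratio arrays read 1999 and 1538, below every immature array, and 8 of the other mature arrays lay above the highest immature one. Young arrays, at 7619, 12098 and 20776, were higher than immature arrays by 0.78 ± 0.27 (adjusted p = 0.033, lost in 6 of 55 fits that left out 1 array), with 0.18 under a batch block (adjusted p = 0.75) and 0.17 inside batch 2 (adjusted p = 0.23).

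**Figure D3:**
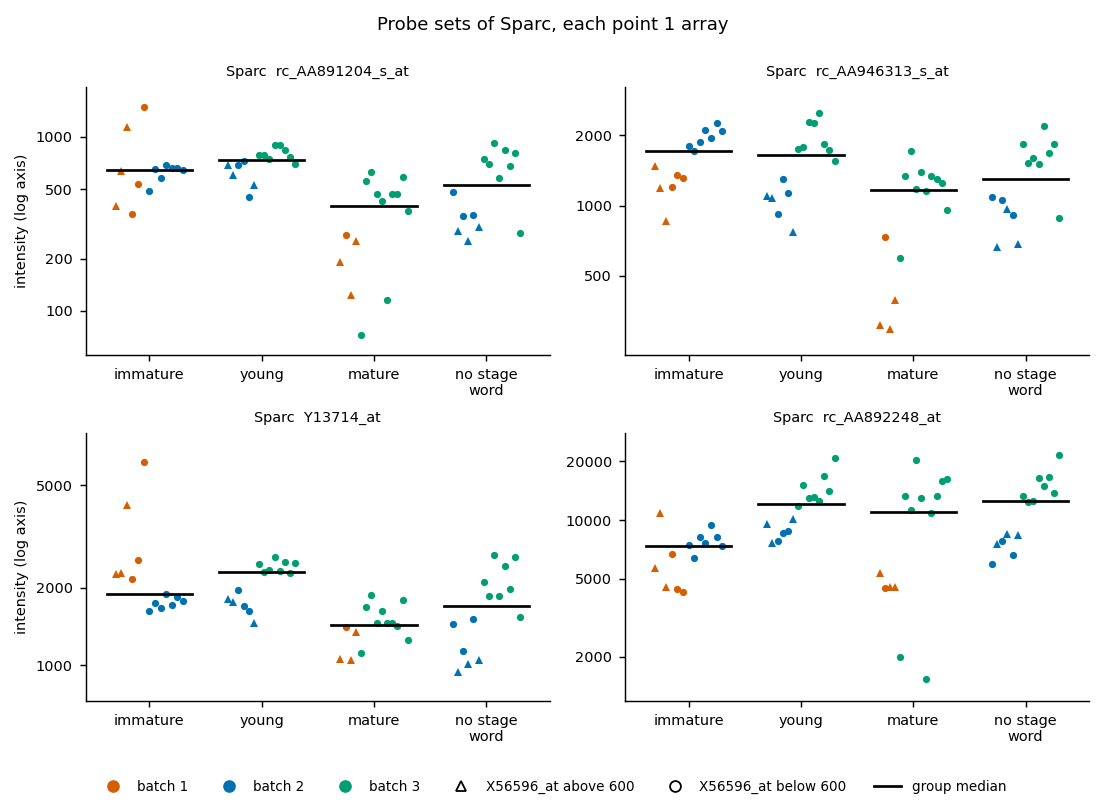
Intensity on a log axis of the 4 Sparc probe sets, each point being 1 array, coloured by batch, with triangles for arrays above 600 on X56596_at and bars at group medians. Mature arrays were lower on rc_AA891204_s_at, rc_AA946313_s_at and Y13714_at, whereas rc_AA892248_at separated by batch, with young arrays at 7619 to 10134 in batch 2 and 11748 to 20776 in batch 3.

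Promoters in RefSeq's GRCr8 table were matched for 6 of the 10 genes, Col4a3, Col4a5, Lamc1, Lum, Fmod and Sparc, each as 250 bases before and 50 after the gene's start. Those of Col4a5 and Sparc, which have probe sets called lower in mature kidney, are given with that of Lamc1, which was not called. Capitals mark GGGCGG or its complement CCGCCC, the GC box, in Col4a5 (chrX:109907109-109907408, + strand) and Lamc1 (chr13:68051937-68052236, - strand). In Sparc (chr10:40038767-40039066, - strand) they mark GGAGG or its complement CCTCC, a purine-rich repeat described in Sparc promoters of other mammals.
Col4a5: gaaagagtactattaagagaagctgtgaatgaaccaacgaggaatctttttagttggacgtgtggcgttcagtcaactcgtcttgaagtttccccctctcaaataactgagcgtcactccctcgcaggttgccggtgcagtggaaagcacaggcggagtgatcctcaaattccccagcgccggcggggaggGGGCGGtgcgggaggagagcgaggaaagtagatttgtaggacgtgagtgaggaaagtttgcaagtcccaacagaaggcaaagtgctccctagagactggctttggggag
Lamc1: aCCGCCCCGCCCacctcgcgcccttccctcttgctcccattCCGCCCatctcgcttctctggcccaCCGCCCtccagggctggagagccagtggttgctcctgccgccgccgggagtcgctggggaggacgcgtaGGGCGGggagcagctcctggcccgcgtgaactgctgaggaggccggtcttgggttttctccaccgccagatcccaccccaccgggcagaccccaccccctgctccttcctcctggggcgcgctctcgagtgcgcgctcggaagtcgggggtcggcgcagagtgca
Sparc: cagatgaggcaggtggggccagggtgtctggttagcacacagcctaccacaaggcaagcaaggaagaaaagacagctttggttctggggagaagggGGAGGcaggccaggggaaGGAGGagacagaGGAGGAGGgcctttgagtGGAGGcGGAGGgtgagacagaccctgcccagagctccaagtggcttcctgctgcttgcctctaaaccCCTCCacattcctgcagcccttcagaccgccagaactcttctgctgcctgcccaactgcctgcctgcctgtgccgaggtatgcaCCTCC
The Sparc window held GGAGG 8 times, 6 on the strand shown and 2 on the other, and it held no TATAAA on either strand, nor the CCAAT box, nor the GC box. GGGCGG occurred 1 time in Col4a5 and 5 times in Lamc1. On both strands together, 71.1% of 33469 rat promoters of this length held GGAGG, 33.1% GGGCGG, 37.5% CCAAT and 14.2% TATAAA. These matches describe the letters of the windows only.

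Across the other pairs of stage descriptions, which reuse the same arrays, the members divided as follows. Young against immature kidney gave 3 probe sets higher and 4 lower of 21, against 18.7% of all probe sets called. The higher ones were Lamb2 rc_AA900848_at, Fn1 U82612cds_g_at and Sparc rc_AA892248_at, and the lower ones Col4a5, Lamb2 rc_AI104225_at, Fn1 X05834_at and Dcn X59859_i_at. Under a batch block 4 were called, against 8.89%. Inside batch 2 the fit called 9 of 21, 3 higher and 6 lower, against 29.3% of all probe sets. The sign held there for all 7 named above, of which 6 passed the test, but those 7 came from a fit that held the same arrays.

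Mature against young kidney gave 5 lower and 0 higher of 21, against 1.80% of all probe sets called and 1.19% lower. They were Col4a5, Fn1 X05831cds_at and X05834_at, and Sparc rc_AA891204_s_at and Y13714_at. Fn1 X05831cds_at read 8.1, 33.3 and 79.3 on mature arrays and 43.9, 73.5 and 111 on young arrays, a difference of -0.72 ± 0.20 (adjusted p = 0.041) that was lost in 17 of 55 fits leaving out 1 array. Without the high-ratio arrays 2 of 21 were called, against 0.900% of all probe sets, and both were of the 5, Col4a5 and Sparc rc_AA891204_s_at. The other 3 were at -0.74 on Fn1 X05831cds_at (adjusted p = 0.064), -0.55 on Fn1 X05834_at and -0.54 on Sparc Y13714_at. Inside batch 3, with those arrays, 1 of 21 was called, Sparc Y13714_at, against 0.442% of all probe sets.

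Immature against no stage word gave 8 higher and 2 lower of 21, against 27.0% of all probe sets called. All 4 Dcn probe sets were among the higher ones, led by X59859_i_at, at 1278, 2600.2 and 3764 on immature arrays and 348, 648 and 1617 on arrays without a stage word, a difference of 1.79 ± 0.24 (adjusted p = 7.2e-08). Mature against no stage word gave 0 calls of 21 by limma, against 0.412% of all probe sets. At an unadjusted p under 0.05 there were 8 of 21, and the share of all probe sets at that threshold was not counted. A batch block called 5, against 5.26%: Dcn X59859_i_at was higher in mature kidney (0.81, adjusted p = 0.04), and Bgn U17834_at (-0.35, adjusted p = 0.0055) and 3 Sparc probe sets were lower. Without the high-ratio arrays that fit called 2 of 21, against 851 of all 6555 probe sets. They were Bgn U17834_at and Sparc Y13714_at, both lower, and Dcn X59859_i_at was at 0.60 (adjusted p = 0.085).

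Young against no stage word gave 0 calls of 21 by limma, against 0.229% of all probe sets. At an unadjusted p under 0.05 there were 6 of 21, again without a count over all probe sets at that threshold. Inside batch 2 the young arrays were higher on 12 of 21 probe sets, against 27.1% of all probe sets called there. Inside batch 3 none was called, against 0% of all probe sets, and 1 of 21 had an unadjusted p under 0.05. Col4a5 read 511 to 641 on young and 253 to 405 on stage-free arrays of batch 2, a difference of 0.93 ± 0.14 (adjusted p = 6.6e-05), and 219 to 422 and 94.6 to 282 in batch 3, a difference of 0.45 ± 0.33 (adjusted p = 1). Whether the difference itself differed between batches was not tested.

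**Figure D4:**
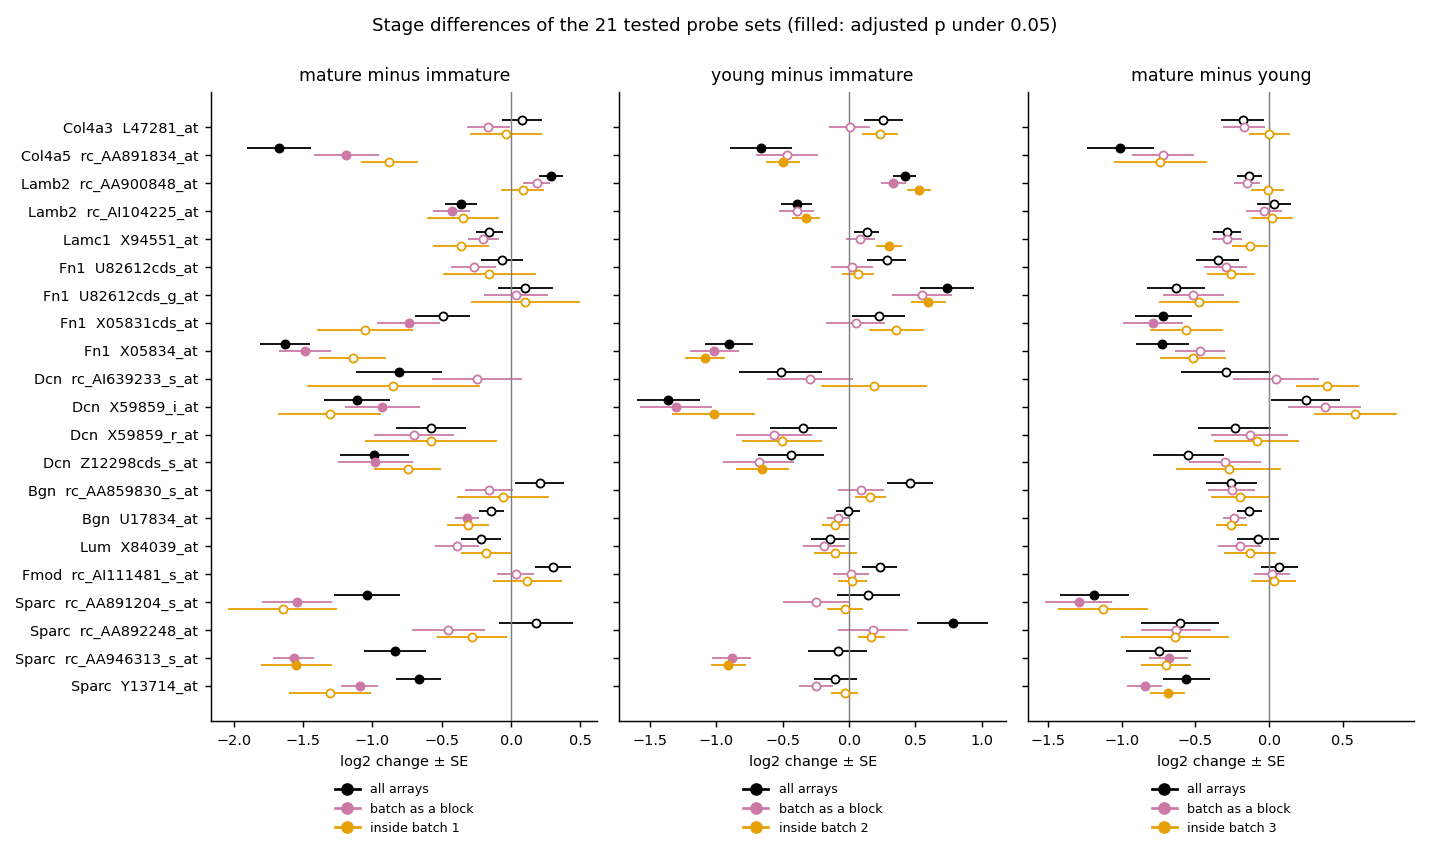
Log2 differences with SE of the 21 tested probe sets between mature and immature, young and immature, and mature and young kidneys, over all arrays (black), with batch as a block (pink) and inside the batch that holds both stages (orange), filled where the adjusted p was under 0.05. Fn1 X05834_at, at -1.63 in the left panel, and Sparc rc_AA946313_s_at, at -0.84, lay below 0 in all 3 fits of that panel.

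The sets of arrays above and below 600 on X56596_at are made from a measured value and are described without a test. They can be set side by side within a batch in 3 places, with 3 arrays each. Above and below did not overlap on 1 of 21 probe sets in immature kidney (batch 1), 3 in young kidney and 5 in kidney without a stage word (both batch 2), against 11.7%, 17.1% and 19.7% of all probe sets tested. By direction, the 1 in immature kidney was lower above 600 (8.63% of all probe sets were lower, 3.10% higher), the 3 in young kidney were lower (8.12% and 9.00%), and in kidney without a stage word 4 were lower and 1 higher (9.98% and 9.75%). In either direction the members' counts lay below the shares in immature and young kidney and above the share in kidney without a stage word. By direction, all but 1 were lower above 600. With 21 probe sets such counts are small, and whether they differ from the shares was not tested.

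Dcn rc_AI639233_s_at had the largest difference of the 21 in each of these places. In immature kidney the arrays above 600 read 131, 285 and 242 and those below read 620.1, 581 and 566, and in young kidney those above read 348, 318 and 337 and those below 609.8, 880.1 and 665. In kidney without a stage word the arrays above read 96.5, 125 and 198, and those below read 559, 844 and 144, so the sets overlapped through 1 array. In batch 1 of mature kidney the 3 arrays above read 123, 61.2 and 166 and the 1 below read 884. The other Dcn probe sets did not separate the sets in any of the 3 places.

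Lamb2 rc_AI104225_at and Bgn U17834_at were lower on the arrays above 600 without overlap in young kidney and in kidney without a stage word, but overlapped in immature kidney. Lamb2 rc_AI104225_at read 486 to 504 above and 573 to 606 below in young kidney. Bgn U17834_at read 1745 to 1958 above and 2008 to 2151 below. In kidney without a stage word, Sparc rc_AA891204_s_at and Y13714_at were also lower above 600, at 944 to 1048 against 1136 to 1515 on Y13714_at. There Fn1 U82612cds_at was higher, at 148.2 to 163.6 against 105.7 to 147.6, so these sets were only just apart.

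**Figure D5:**
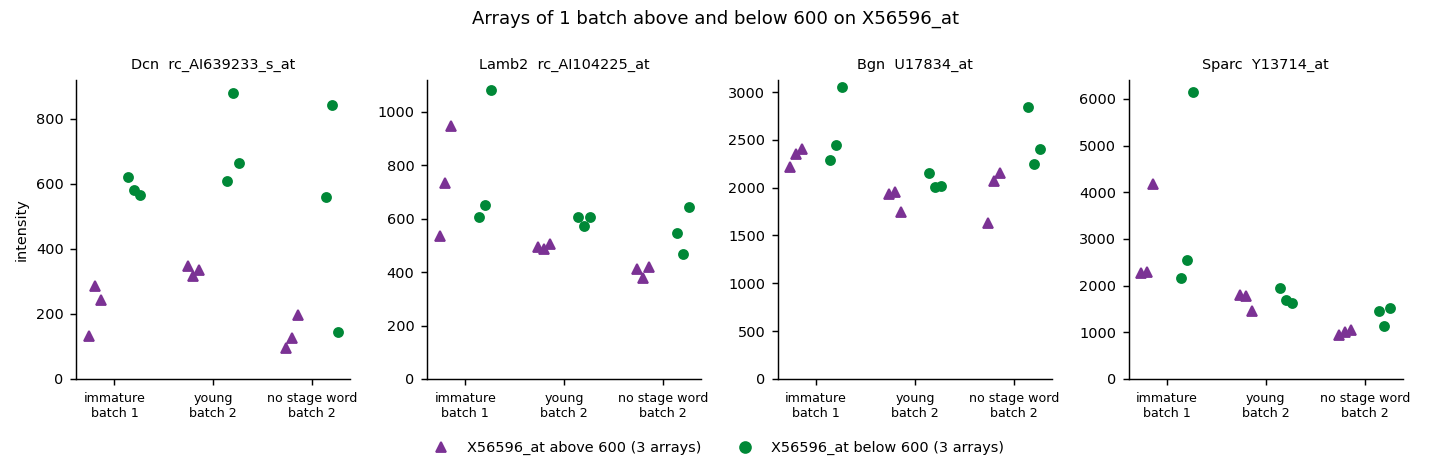
Intensity of 4 probe sets on arrays above 600 on X56596_at (purple triangles) and below it (green circles), 3 of each, within immature kidney of batch 1 and young and stage-free kidney of batch 2. Dcn rc_AI639233_s_at lay lower above 600 in immature and young kidney without overlap, and 1 array below 600 without a stage word read 144.

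Mature against immature differences were of the same direction inside each set for the calls above. Of mature and of immature kidney the set above 600 held 3 arrays each, all of batch 1, with mature replicate 12 (GAPDH ratio 2.62) among them. Inside this set 5 of 21 probe sets were called, all lower, against 5.71% of all probe sets. They were Fn1 X05834_at, Dcn X59859_i_at and the 3 Sparc probe sets named above. Inside the set below 600, with 11 mature and 10 immature arrays, 7 were lower and 1 higher, against 28.3% of all probe sets called.

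Other genes of the same matrix were read from 6 lists, of which 39 genes in 5 lists were measured above the filter. In mature against immature kidney 12 fell and 3 rose, against 24.4% of all probe sets called, with a median difference of -0.09 on the log2 scale against 0.04 over all probe sets. With batch as a block 7 of the 39 were called lower and 1 higher, against 12.6% of all probe sets called in either direction. Both tested genes of further basement membrane components fell: Agrn, agrin, a heparan sulfate proteoglycan of the glomerular membrane, read 461, 628 and 924 on mature arrays and 800.4, 1173 and 1524 on immature arrays (-0.86, adjusted p = 9.9e-10), and Col15a1 differed by -0.42 (adjusted p = 0.021). The laminins Lama1 and Lama3 were at -0.44 and -0.30 and were not called (adjusted p = 0.08 and 0.12).

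Of 11 adhesive and matricellular glycoproteins 7 fell and 0 rose, against 24.4% of all probe sets called in either direction. Eln, elastin, read 270.4, 388 and 592 on mature arrays and 545, 749 and 1430.2 on immature arrays (-0.95, adjusted p = 2.7e-09). Sparcl1, a relative of Sparc, read 33.1, 157 and 317 on mature arrays and 186, 326 and 391 on immature arrays (-1.14, adjusted p = 0.00039). The other genes named are Spp1 (osteopontin) at -0.78, Fbln5 (fibulin 5) at -0.43, Spon1 (F-spondin) at -0.49 and Mgp (matrix Gla protein) at -0.53. With batch as a block 4 of the 11 were called, all lower, against 12.6% of all probe sets.

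Of 15 further proteoglycans and glycosaminoglycan enzymes 2 fell and 1 rose, against 24.4% of all probe sets called in either direction. Gpc3 and Gpc2, glypicans held on the cell surface, differed by -0.88 and -0.74 (adjusted p = 6.2e-05 and 0.04). Sdc3, syndecan 3, differed by 0.35 (adjusted p = 0.041). Of these 3, only Gpc3 was called under a batch block (-0.48, adjusted p = 0.039), with Gpc2 at -0.59 (adjusted p = 0.18) and Sdc3 at 0.12 (adjusted p = 0.61). Of 9 matrix receptors 1 fell and 2 rose, against the same share of 24.4%. Itgb1, the integrin β1 chain that pairs in many fibronectin, collagen and laminin receptors, read 1579.7 to 3306 on mature arrays and 2262 to 4386 on immature arrays (-0.52, adjusted p = 0.0012), with -0.23 under a batch block (adjusted p = 0.2). Cd44, a hyaluronan receptor, and Ddr1, a collagen-binding kinase, differed by 0.58 and 0.43 (adjusted p = 0.023 and 0.018), and by 0.45 and 0.49 under a batch block (adjusted p = 0.19 and 0.025).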

How the data were processed

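The authors deposited 1 intensity per probe set and array (linear, none below 0, trimmed mean 500.2 to 500.7 on every array); the summarisation method was not given in the sources used here. Of 8799 probe sets, 7018 had 1 gene symbol in the platform annotation, 308 several and 1473 none; only single-symbol probe sets were named, 6994 through the current RefSeq symbol. No 2 arrays were identical.

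The 59 control probe sets were left out. Values were log2(intensity + 15.82), the offset being 0.1 of the median, so folds of dim probe sets are understated, and probe sets with a mean under the 25th percentile were dropped, leaving 6555. limma 3.58.1 in R 4.3.3 fitted the 4 stage descriptions over 55 arrays (lmFit, eBayes; 6 contrasts and an F test), with Benjamini-Hochberg adjustment over all 6555; called means an adjusted p under 0.05. The number of arrays limits the precision. The code was tested on simulated data. Ward clustering of 42 control probe sets gave the 3 batches. Alternatives were batch and X56596_at set as blocks or as separate fits, other offsets, no filter, quantile normalization, array weights, a robust trended prior, the groups of a contrast alone, and each array or the high-ratio arrays left out. All probe sets of the members were reported; from the other lists, called genes were named, up to 6 a list by smallest p. Members, lists and tests were chosen with earlier results of these data known. Each marker gene was read by its brightest probe set. Figures used matplotlib 3.10.9.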

Additional observations from a re-analysis of the deposited data

How the results depend on the processing

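No paired analysis was possible because the numbers in the titles run through the series and pair no array with another. Of 21 probe sets, the number called between mature and immature kidney was 10, and 9 to 12 leaving out 1 array. It was 14 with array weights (5 higher, 9 lower), 7 with set and batch as blocks, 8 inside the set below 600, 5 inside the set above 600 and 1 inside batch 1. Between young and immature it was 7, and 4 with batch as a block, 3 with set and batch as blocks, 3 inside the set above 600 and 5 to 8 leaving out 1 array. Between mature and young it was 5, and 3 with array weights, 2 in the fit of these groups alone, 2 without the high-ratio arrays, 1 inside batch 3 (3 without the high-ratio arrays), 1 inside the set below 600 and 3 to 7 leaving out 1 array (3 without mature replicate 12). Between immature and no stage word it was 10, and 12 with array weights, 13 inside batch 2, 8 with set and batch as blocks, 6 inside the set above 600 and 8 to 10 leaving out 1 array. Between young and no stage word it was 0, and 2 with array weights, 12 inside batch 2, 1 inside the set above 600 and 2 with a batch block without the high-ratio arrays. Between mature and no stage word it was 0, and 5 with batch or with set and batch as blocks, 1 inside the set above 600, 4 inside batch 3 and 2 with a batch block, the last pair without the high-ratio arrays. The settings that combine batch with leaving out these arrays were chosen after seeing the data. Inside the set above 600 the mature and immature arrays are all of batch 1 and the others all of batch 2, so batch and stage cannot be told apart there except between mature and immature and between young and no stage word. The F test called 14 of 21, and 12 to 15 leaving out 1 array. Calls over all 6555 probe sets also changed with the setting, as given for each pair below.

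Of 1974 member differences under an alternative, single arrays left out aside, 132 had the opposite sign to the reported one. In 125 of them neither value was called, and the other 7 follow. Their cause was not tested. Dcn rc_AI639233_s_at was at 0.31 between mature and immature with set and batch as blocks, and Col4a5 at 0.37 between young and immature inside the set above 600. Between immature and no stage word, Col4a3 was at 0.39, Bgn rc_AA859830_s_at at 0.33 and Sparc rc_AA892248_at at 0.063 inside batch 2, and Sparc rc_AA892248_at at 0.054 with a batch block without the high-ratio arrays. Lamb2 rc_AI104225_at was at -0.38 between mature and no stage word inside batch 3 without them (adjusted p = 0.015). Over all 6555 probe sets, mature minus immature called 1599, and 3691 with array weights, 829 with a batch block and 651 with set and batch as blocks. It called 374 inside the set above 600 and 47 inside batch 1. Young minus immature called 1225, and 583 with a batch block, 360 with set and batch as blocks and 1023 inside the set above 600. Immature minus no stage word called 1773, and 3831 with array weights, 2848 inside batch 2 and 980 with set and batch as blocks. Inside the set above 600 it called 834. Mature minus young called 118 (40 higher, 78 lower), and 132 (58 higher, 74 lower) after quantile normalization. It called 260 with array weights, 482 inside the set above 600, 48 inside the set below 600 and 50 with these groups alone. Without the high-ratio arrays it called 59, inside batch 3 29 and without young replicate 4 61. Young minus no stage word called 15, and 372 with array weights, 1778 inside batch 2 and 79 inside the set above 600. Mature minus no stage word called 27, and 345 with a batch block, 348 with set and batch as blocks and 146 inside the set above 600. Without the high-ratio arrays a batch block called 251 for the former and 851 for the latter, and batch 3 alone called 218 for the latter.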

Other observations

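Probe sets that varied most like each member were found by Pearson's r over 55 arrays, after each array's value was taken as its deviation from the mean of its stage and batch. These are descriptions over arrays that share chips and normalization. Sparc rc_AA892248_at was most like Gpx3 (r = 0.96, and 0.80 without the 2 high-ratio arrays), and Col4a5 most like Atp5pf (0.90, and 0.66 without them). Dcn Z12298cds_s_at was most like Egf at 0.87, against 0.44 without those arrays. Sparc rc_AA946313_s_at was most like Cd200 (0.78, and 0.72 without them) and Spon1 (0.75 and 0.74). Sparc Y13714_at was most like Agrn (0.74 and 0.74) and then Slc12a3 (0.66 and 0.85), so without those arrays Slc12a3 stood above Agrn. Dcn rc_AI639233_s_at was most like Esm1 and a further probe set of RT1-Bb, U65217_i_at, both at 0.71. That r is positive, whereas the same Dcn probe set was lower on arrays above 600 on X56596_at in immature and young kidney. How the probe sets of RT1-Bb compare was not tested.

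Probe sets of the same gene varied together only in part. Over 20 pairs of the same gene r ran from -0.06 to 0.76, with a median of 0.39, and over 190 pairs of different genes from -0.64 to 0.82, with a median of 0.14. Without the 2 high-ratio arrays the pairs of the same gene ran from -0.52 to 0.87 (median 0.33) and those of different genes from -0.49 to 0.64 (median 0.15). The lowest and highest of the same gene were then Sparc Y13714_at with rc_AA892248_at and with rc_AA891204_s_at. Sparc rc_AA891204_s_at with rc_AA892248_at was then at -0.46, against 0.50 over all arrays. For rc_AA946313_s_at with rc_AA892248_at r was then -0.35, against 0.16 over all arrays. Fn1 M28259cds_at, under the filter, read 28.8 to 75.1 (median 66.0) on the 6 young arrays of batch 2, against 12.5 to 26.3 on the 7 immature arrays and 9 to 41 on the 6 arrays without a stage word of that batch, and 12.5 to 51.9 on the 8 young arrays of batch 3.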
